A study of Callithrix jacchus with 11 samples.

Results

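The transcripts described here are ENSCJAT00000012224.1, which stood highest in human hand-reared over parent-reared young marmosets, and the 100 transcripts whose levels across all 11 animals followed it most closely. The reference and its 100 followers, called members below, come from the 54670 marmoset transcripts on the array. They were chosen from their measured values. A transcript could be chosen if its probe was well above background on all 11 arrays, which held for 38716, and if its log2 level had a standard deviation (SD) of at least 0.5 over the arrays, which left 6171. Among these, the 100 with the highest Pearson correlation (r) to ENSCJAT00000012224.1 were taken. The reference had the largest increase of the 6171 in hand-reared young animals (0 were further out). Any transcript with a higher r to ENSCJAT00000036151.2 would have been left out, and this removed 0. ENSCJAT00000036151.2 had a large decrease in the same comparison (-3.63, with 3 of the 6171 further down). Its r to the reference was -0.883, so no transcript that followed the reference this closely could be removed. The reference transcript was picked for its difference between the young groups and the others for following it over all arrays, so every group difference given below is a description of what was chosen and no test of it.

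Expression was measured in hippocampus tissue of male common marmosets (Callithrix jacchus), 1 animal per array. The young groups were 2 parent-reared (PRY) and 3 human hand-reared (HRY) animals of 13 to 19 months. The sample labels, which were followed here, and the study's text both give these sizes. A heat map of the study labels its young columns with the sizes exchanged. The aged groups were 3 parent-reared (PRA) and 3 human hand-reared (HRA) animals of 88 to 164 months. Rearing by people or by the parents lasted for the first 3 months of life, after which all animals lived with peers of their own age. Hand-rearing was given to infants taken from litters too large for the mother, and the part of litter size in the differences was not tested. The question behind the comparisons was which transcripts differ with early rearing soon afterwards, in young animals, and late in life, in aged animals.

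The hippocampus is a brain region that forms new memories and takes part in regulating the response to stress. It holds excitatory and inhibitory neurons, astrocytes, oligodendrocytes, microglia and blood vessels, and lies beside the choroid plexus and the thalamus. In bulk tissue, fewer cells of a type and less RNA per cell cannot be told apart. An Ensembl transcript identifier stands for 1 predicted RNA product of a gene, so that several identifiers can belong to the same gene, and probes for them can then bind the same RNA. The array names its probes by these identifiers alone. The tables used for gene names held 0 of the members' identifiers, so no member is named as a gene, no role is given for any of them, and markers of hippocampal cell types could not be looked up.

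All values below are log2 intensities of a probe minus the 75th percentile of its array, so that 0 stands for the 75th percentile and a step of 1 for a doubling. The brightness of a probe also depends on its sequence, and levels are therefore compared between animals and never between probes. The number of transcripts detected well above background ranged from 41113 to 43435 per array. The arrays came on 2 slides, with PRY1, HRY1 and HRY2 on slide 1 and the other 8 on slide 2. On slide 2, HRY3 and the HRA arrays lay in 1 row and PRY2 and the PRA arrays in the other, so the effects of row and of rearing cannot be told apart among the aged animals.

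ENSCJAT00000012224.1 stood at -5.50 and -4.96 in the PRY animals. It stood at 2.54, -0.39 and -1.64 in the HRY animals. Every HRY animal lay far above both PRY animals, and HRY1 stood well apart from the other HRY animals. The mean difference of 5.40 corresponded to a 42.2-fold higher level in HRY (0.17 ± 2.14, SD, n = 3) than in PRY (-5.23 ± 0.38, SD, n = 2). Before scaling, the processed intensity of the probe, with background subtracted, was 57.7 and 46.8 in PRY against 16042, 1987 and 533 in HRY. The local background was 28 to 43.5 on these arrays.

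In the aged animals the order of the rearing groups was turned. ENSCJAT00000012224.1 stood at -1.64, -2.70 and -3.13 in PRA (-2.49 ± 0.77, SD, n = 3). It stood at -5.12, -5.17 and -2.97 in HRA (-4.42 ± 1.25, SD, n = 3), which was 1.93 lower on the log2 scale, or 3.80-fold. HRA1 and HRA2 were as low as the PRY animals, whereas HRA3 lay above the lowest PRA animal, so the aged groups overlapped. The level of the hand-reared animals was thus high in young and low in aged tissue, and that of the parent-reared animals was low in young and intermediate in aged tissue.

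Within slide 1, the mean of HRY1 and HRY2 exceeded PRY1 by 6.57. Within slide 2, HRY3 exceeded PRY2 by 3.32, 1 animal against 1. With each young animal left out in turn, the difference ranged from 4.21, or 18.6-fold, without HRY1 to 6.30, or 78.9-fold, without HRY3. With the normexp background correction and an offset of 50 it was 4.39, or 20.9-fold, and with the RNA quality score RIN as a covariate it was 4.81.

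A pair of further transcripts followed the reference almost exactly. ENSCJAT00000012216.2 (r = 0.999) was higher in HRY than in PRY by 5.34, or 40.6-fold, and ENSCJAT00000012217.2 (r = 0.998) by 5.03. Their aged differences were -1.93 and -1.61. The identifiers of these 3 transcripts are near neighbours in number. Whether they are products of 1 gene was not tested, because neither gene names nor probe sequences were used here.

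**Figure D1:**
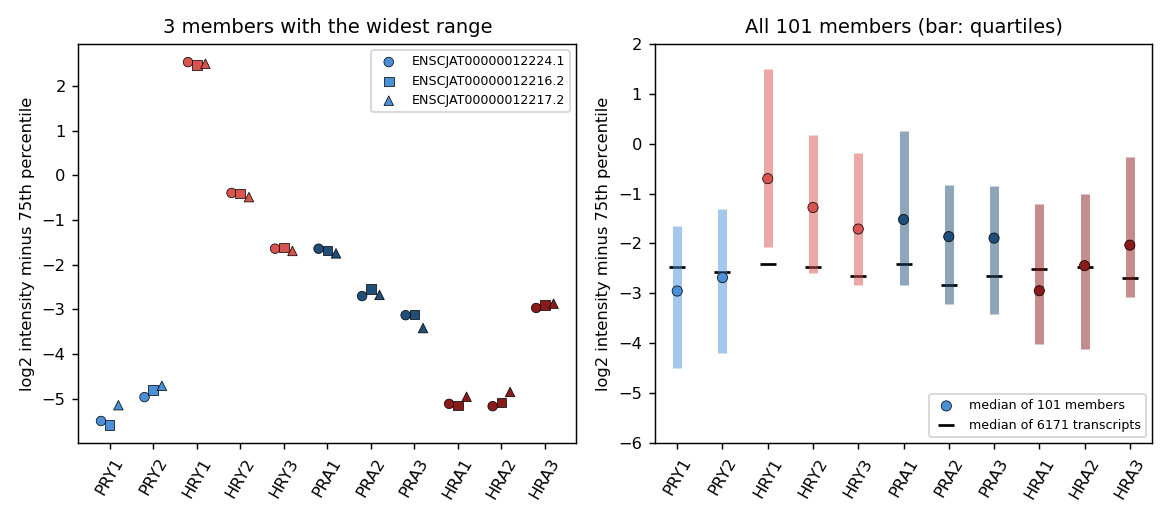
Levels in each animal, as log2 intensity minus the 75th percentile of the array. Left: the 3 members with the widest range, each point 1 animal. They are highest in HRY1 and lowest in PRY1, PRY2, HRA1 and HRA2. Right: the median (point) and quartiles (bar) of all members, with the median of the 6171 transcripts that met the conditions as a dash. The members' median moves from -2.95 in PRY1 to -0.70 in HRY1, while the dash stays between -2.82 and -2.41.

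The other members moved over a much narrower range. From the lowest to the highest array, the members spanned 1.40 to 8.06 on the log2 scale, with a median of 2.21, and the widest after the first 3 was ENSCJAT00000033057.2 with 4.77. The slope of a member on the reference had a median of 0.248 and did not exceed 0.58 outside the first 3. A correlation measures the shape of a profile and not its size, and most members shared the shape at a smaller amplitude.

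The median level of the members was -2.95 and -2.68 in PRY, and -0.70, -1.28 and -1.71 in HRY. It was -1.52, -1.86 and -1.89 in PRA, and -2.95, -2.45 and -2.03 in HRA. HRY and PRY were clearly separate, HRY3 lay within the range of PRA, and HRA1 was as low as PRY1. By group, the median level was highest in HRY (-1.23 ± 0.51, SD, n = 3), followed by PRA (-1.76 ± 0.21, SD, n = 3), HRA (-2.48 ± 0.46, SD, n = 3) and PRY (-2.82 ± 0.19, SD, n = 2). The neighbours in this order differed by about as much as the larger of their SDs or less, except for PRA and HRA, where the difference of -0.72 was larger in size than either SD.

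The mean of HRY was the highest of the 4 group means for all members, which the choice of members makes likely. The order HRY, PRA, HRA, PRY from high to low held for 83 members. In 13 members HRA was lower than PRY, in 3 both aged groups were lower than PRY, and in 2 HRA was higher than PRA. PRY was lowest in 85 members and HRA in the other 16. Array by array, every PRA animal was above every PRY animal for 84 members (14.2% of the 6171 transcripts that met the conditions), and every HRY animal was above every HRA animal for 80 (7.86%). HRY was above PRA in every animal for 20 members (9.66%), and PRA1 exceeded HRY3 in 72.

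Single animals stood apart in this shape, much as they did in the reference, which the choice of members makes likely. HRY1 was the highest array for 90 members, HRY2 for 7, PRA1 for 3 and HRY3 for 1. The lowest array was PRY1 for 52, HRA1 for 17, PRY2 and HRA2 for 14 each, PRA3 for 3 and PRA2 for 1. Animals of the same group also stood in a recurring order, with HRY1 highest of the HRY animals in 93 members, PRA1 highest of the PRA animals in 90, HRA3 highest of the HRA animals in 96 and PRY2 the higher PRY animal in 75. HRY1 and HRY2 were above the member's own mean in all members, and PRA1, HRY3 and HRA3 in 99, 92 and 63. HRA1, HRA2, PRY1 and PRY2 were above it in 1, 0, 2 and 7. In the reference too, HRY1, PRA1, HRA3 and PRY2 were the highest of their groups. The same counts were not taken over all transcripts, so nothing is read from them.

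**Figure D2:**
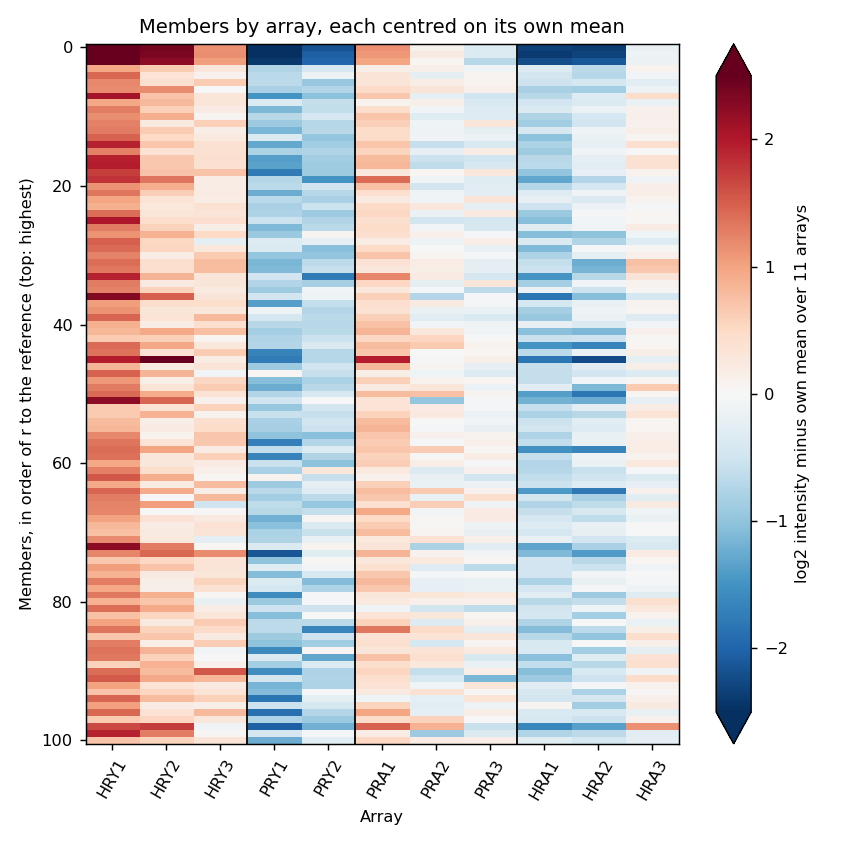
Each row is 1 member, in order of r to the reference at the top, and each column 1 animal. Colour gives the log2 level minus the member's own mean over the 11 arrays, with colours cut at 2.5 in both directions. HRY1 is the reddest column and PRY1 the bluest, and within the HRA block HRA3 is paler than HRA1 and HRA2.

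The differences between the 4 groups held a median of 67.1% of a member's variance over the arrays, between 43.8% and 89.2%, against a median of 39.7% over the 6171 transcripts. For the reference it was 77.2%. The remainder was shared as well. With each group's mean removed, the members still correlated with the reference, at r between 0.329 and 0.998 with a median of 0.759 over 11 arrays. This correlation was part of what chose them, and the arrays share slides and scaling. By rank, Spearman's rho to the reference was between 0.691 and 0.991, with a median of 0.886.

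Among the young animals, the members' difference between HRY and PRY ranged from 0.87 to 5.40 with a median of 1.43, or 2.70-fold, and was above 0 for all members. Over the 42034 transcripts tested the median was -0.01, and over the 6171 it was -0.17. The difference exceeded 2 in 16 members, lay between 1 and 2 in 79 and was 1 or less in 6. The criteria for a call were more than a 2-fold change together with p under 0.05 in limma before adjustment. Counts of calls cover the 100 followers and leave out the reference. By these criteria 94 were higher in HRY, which held for 1.81% of all tested transcripts and 8.12% of the 6171. Of the followers, 0 were lower in HRY (0.842% of all tested). Every HRY animal was above every PRY animal in 93 of them (11.9% of all tested). The reference was selected on this contrast, so nothing is read from these counts. Over all tested transcripts, 0 had an adjusted p under 0.05 in limma for this contrast, with 3971 at an unadjusted p under 0.05. Without PRY1 the 94 fell to 62, and they were 65 without HRY1 and 71 with RIN, a measure of how intact the RNA was, as a covariate. The RINs were matched to the animals by the order in which the study lists them. By this match PRY2, HRA1 and HRA2 had the lowest RINs, and PRY1 had a higher one. The members' median was lowest in PRY1 (-2.95), HRA1 (-2.95), PRY2 (-2.68) and HRA2 (-2.45). The part of RNA quality in these differences was not tested further.

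After the first 3, the members with the largest young differences were ENSCJAT00000033057.2 and ENSCJAT00000007021.2. ENSCJAT00000033057.2 stood at -4.97 and -3.93 in PRY, at -1.26, -0.69 and -3.04 in HRY, at -1.26, -3.24 and -3.08 in PRA and at -5.03, -5.46 and -3.47 in HRA. It separated the rearing groups in every animal, upwards by 2.79, or 6.92-fold, in young tissue and downwards by 2.12, or 4.36-fold, in aged tissue, which was the largest aged difference of any member. ENSCJAT00000007021.2 stood at -1.15 and -0.30 in PRY, at 2.56, 2.65 and 0.82 in HRY, at 2.38, 1.77 and 0.36 in PRA and at -0.72, -0.45 and 2.04 in HRA. Its young groups were separate, with a difference of 2.73, whereas HRA3 lay with the high PRA animals. The smallest young differences, each 0.87 or 1.83-fold, were those of ENSCJAT00000040857.2, ENSCJAT00000053333.1 and ENSCJAT00000023786.2. In the first and the third of these, the lowest HRY animal was below the higher PRY animal.

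Among the aged animals, 99 members were lower in HRA than in PRA and 2 were not, with a median difference of -0.47, or 1.39-fold, and a range of -2.12 to 0.29. The median was -0.31 without PRA1 and -0.32 without HRA1. Before leaving out any animal, the median was -0.01 over all tested transcripts and 0.18 over the 6171. The difference was below -1 in 14 members, between -1 and -0.5 in 31 and between -0.5 and 0 in 54. By the criteria, 7 members were lower in HRA, against 0.314% of all tested transcripts and 1.07% of the 6171, and 0 were higher (1.01% of all tested). The aged arrays were among those that chose the members, so nothing is read from these counts either. Leaving out single animals moved the 7 to 3 without HRA1 or without HRA2, 4 without PRA1 and 15 without HRA3. With RIN as a covariate 1 member met the criteria. Over all tested transcripts, 0 had an adjusted p under 0.05 in limma, with 5162 at an unadjusted p under 0.05.

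HRA3 was the animal that most often joined the groups. By the match of RINs given above, HRA1 and HRA2 had lower RINs than HRA3 and the PRA animals. The part of RNA quality in this was not tested. Every HRA animal was below every PRA animal in 19 members (8.46% of all tested), and in the other 82 HRA3 was above the lowest PRA animal. HRA1 and HRA2 were both below every PRA animal in 70, a count without a share over all transcripts, from which nothing is read. The 2 members that were not lower in HRA were ENSCJAT00000021422.2, with a difference of 0.29, and ENSCJAT00000031803.2, with 0.06. ENSCJAT00000021422.2 stood at -3.77, -4.14 and -4.31 in PRA and at -4.14, -3.79 and -3.42 in HRA, and these groups overlapped.

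The difference between the stages in the rearing effect, which is the young minus the aged difference, met the same criteria in limma for all 100 followers, against 3.8% of all tested transcripts and 11.2% of the 6171. This follows from a profile that is high in HRY and low in HRA and PRY, and nothing is read from it. Over all tested transcripts 0 had an adjusted p under 0.05 for this contrast, with 7868 at an unadjusted p under 0.05. In 16 members every HRY animal was above every PRY animal while every HRA animal was below every PRA animal (1.83% of all tested).

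**Figure D3:**
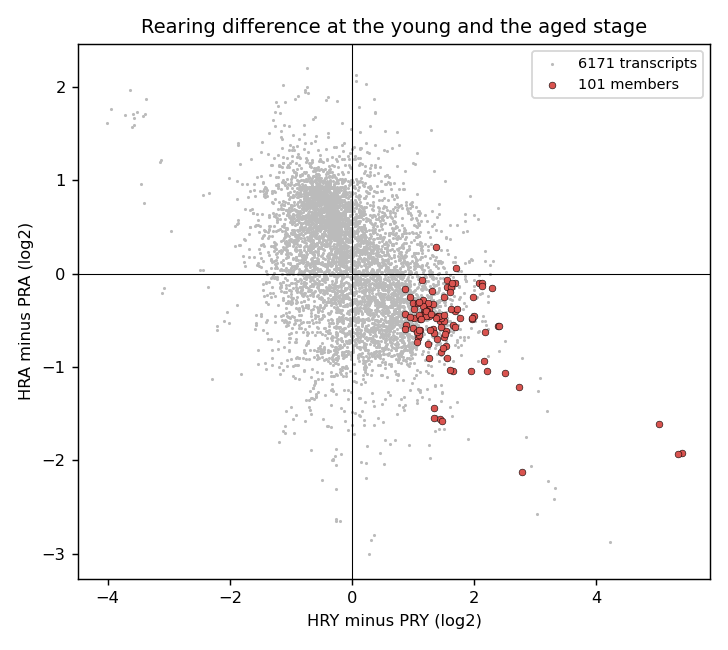
Difference between hand-reared and parent-reared animals, as log2 group means, in young (x axis) and aged (y axis) animals. Red points are the members and grey points the 6171 transcripts that met the detection and SD conditions. The members lie between 0.87 and 5.40 on the x axis, and all but 2 lie below 0 on the y axis, with the 3 widest at the far right.

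The 7 members past the criteria at both stages were ENSCJAT00000033057.2, ENSCJAT00000010548.2, ENSCJAT00000024372.1 and a set of 4 with near-identical profiles, ENSCJAT00000054867.1, ENSCJAT00000011571.2, ENSCJAT00000011578.2 and ENSCJAT00000061070.1 (0.0714% of all tested transcripts passed at both stages in these directions). The 3 widest members were not among them, as their aged differences did not meet the criteria. The set of 4 had a median level of -3.09 and -2.77 in PRY and of -0.97, -1.45 and -2.16 in HRY. In PRA it was -1.61, -1.74 and -2.32, and in HRA it was -3.85, -4.12 and -2.31. HRA1 and HRA2 were lower than both PRY animals, and HRA3 was close to PRA3. The aged differences of the set, from -1.58 to -1.43, were larger in size than or close to its young differences of 1.34 to 1.47.

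Another set combined a young difference with almost no aged difference. It consisted of 8 members, ENSCJAT00000055950.1, ENSCJAT00000024130.2, ENSCJAT00000059687.1, ENSCJAT00000006343.2, ENSCJAT00000006339.2, ENSCJAT00000006349.1, ENSCJAT00000024082.2 and ENSCJAT00000024133.2. Their median level was -1.09 and -0.62 in PRY and 1.77, 0.80 and 0.43 in HRY. It was 0.79, -0.15 and -0.24 in PRA and -0.36, -0.01 and 0.43 in HRA. The young groups were separate, and the aged groups lay across each other, with PRA1 and HRA3 high and the other 4 near 0. The young differences of these members were 1.56 to 2.29 and the aged differences -0.15 to -0.07. Members with a similar order of the young animals thus had different values among the aged, at an r to the reference of 0.93 for ENSCJAT00000055950.1 and 0.88 for ENSCJAT00000054867.1. These sets were defined from the same arrays, and their contrast was not tested.

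Both sets came from linking members pair by pair wherever r was above 0.98, so that members of a set can be joined through others at a lower r of their own, down to 0.965 in the set of 8 and 0.922 in the largest group. This joined 54 members into 15 groups and left 47 on their own, for 62 separate profiles. The largest group held 9 members, led by ENSCJAT00000011647.1, with young differences of 1.16 to 2.00 and aged differences of -0.57 to -0.34. Of the 5050 pairs of members, 64 (1.27%) passed 0.98, against 0.453% of all pairs among the 6171 transcripts. Members were chosen for a shared profile, which makes a higher share likely, so nothing is read from this difference. Of the 64 pairs, 17 had identifiers in the same numbered run. Taking identifiers within 50 of each other as a run, 44 members fell into 18 runs, so the members' identifiers stood for 75 runs. Transcripts of a run did not always move alike. ENSCJAT00000006339.2, ENSCJAT00000006343.2 and ENSCJAT00000006349.1 correlated at 0.997 or above, whereas in the run of ENSCJAT00000031542.2 the lowest r was 0.627. Because members can share a gene or probe target, counts of members are not counts of independent genes.

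Of the members nearest to the reference after the first 3, ENSCJAT00000024822.2 (r = 0.97) had a young difference of 1.20 and an aged difference of -0.35. ENSCJAT00000011132.2 had 1.02 and -0.47, ENSCJAT00000024817.2 had 1.16 and -0.28, ENSCJAT00000024130.2 had 1.56 and -0.14, and ENSCJAT00000054850.1 had 1.27 and -0.37. In all of these the HRY animals were above the PRY animals and the aged groups overlapped. ENSCJAT00000021232.1 was an exception among the nearest, at -4.11 and -4.41 in PRY, at -2.27, -3.06 and -2.83 in HRY, at -3.14, -3.27 and -3.37 in PRA and at -3.99, -3.91 and -3.74 in HRA. None of its groups overlapped within a stage, and the animals of each aged group lay close together. Its young difference was 1.54 and its aged difference -0.62. ENSCJAT00000038076.2 was separate at both stages too, at -2.41 and -2.33 in PRY, at -0.42, -0.42 and -1.61 in HRY, at -1.13, -1.28 and -1.47 in PRA and at -2.41, -2.45 and -1.74 in HRA. Its differences were 1.55 and -0.90.

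The members with the brightest probes were ENSCJAT00000014115.2, ENSCJAT00000024372.1 and ENSCJAT00000028799.2. ENSCJAT00000014115.2 stood at 1.87 and 2.57 in PRY, at 3.74, 2.99 and 3.55 in HRY, at 3.37, 2.61 and 2.65 in PRA and at 2.24, 2.47 and 2.58 in HRA. ENSCJAT00000028799.2 stood at 1.09 and 2.07 in PRY, at 3.13, 2.88 and 2.51 in HRY, at 2.44, 2.14 and 1.99 in PRA and at 0.95, 1.01 and 1.91 in HRA. Both kept the groups of each stage apart in every animal, although HRA3 lay just below the lowest PRA animal in each. The mean of HRA was above that of PRY in ENSCJAT00000014115.2 and below it in ENSCJAT00000028799.2. ENSCJAT00000024372.1 stood at 1.73 and 0.73 in PRY, at 3.73, 2.95 and 2.86 in HRY, at 3.71, 2.86 and 2.14 in PRA and at 1.30, 1.74 and 2.54 in HRA. Its young difference was 1.94 and its aged difference -1.04, with HRA3 above the lowest PRA animal.

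The limit of 100 fell in a region where r changed little. The last members were ENSCJAT00000007021.2 (r = 0.852), ENSCJAT00000031542.2 (0.851) and ENSCJAT00000057691.1 (0.851), and the first transcripts outside were ENSCJAT00000057416.1 (0.850), ENSCJAT00000034013.2 (0.849) and ENSCJAT00000044174.1 (0.849). Over all members after the reference, r ranged from 0.851 to 0.999 with a median of 0.876. Between members it ranged from 0.495 to 0.999 with a median of 0.822, and in 0 of the pairs was it below 0. The choice fixed the last of these, as every follower had an r of 0.851 or more to the reference. The probes lay all over the array, with 18 to 28 members in each of 4 equal bands of rows and 18 to 31 in each of 4 equal bands of columns, and each was printed once.

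Which transcripts belong to the list depended on single animals. When the choice was repeated without 1 array, 38 of the 100 followers were chosen again without HRY1, 63 without PRY1, 66 without HRA2, and 71 to 84 when any other array was left out. Without HRY1, the r of the members to the reference was between 0.685 and 0.999, with a median of 0.842. Of the followers, 24 were chosen in all 11 of these repeats. They included ENSCJAT00000012216.2, ENSCJAT00000012217.2, ENSCJAT00000021232.1, ENSCJAT00000038076.2, ENSCJAT00000055950.1, ENSCJAT00000054867.1, ENSCJAT00000028799.2 and ENSCJAT00000033057.2. ENSCJAT00000024822.2, the next in r after the first 3, was chosen in 8 of the 11. Its r to the reference stayed between 0.959 and 0.971 in these repeats, and its SD over all arrays was 0.52. The detection and SD conditions were applied anew each time, so a follower could be lost through its SD as well as its r.

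**Figure D4:**
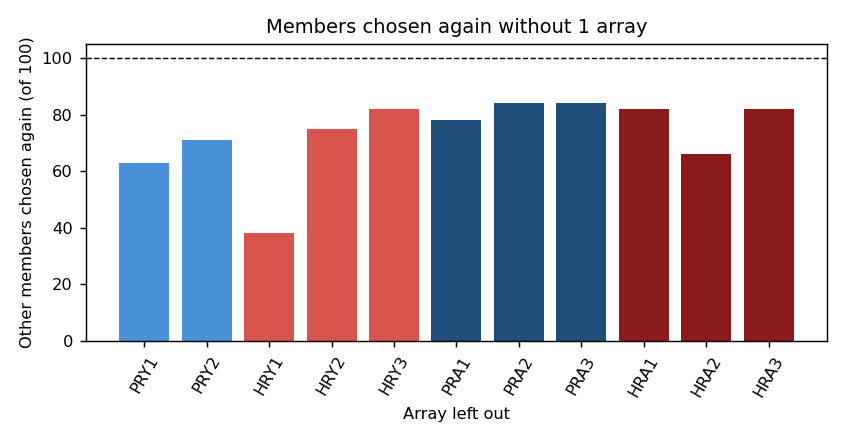
Number of the 100 followers chosen again (y axis) when the choice was repeated without the array named on the x axis. The detection and SD conditions were applied anew, and the dashed line is at 100. The bar without HRY1 is the lowest, at 38, and the highest bars reach 84.

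The mirror image of the pattern was followed by the transcripts nearest to ENSCJAT00000036151.2. This transcript stood at -1.32 and -2.99 in PRY, at -6.29, -5.10 and -5.98 in HRY, at -5.63, -4.69 and -3.55 in PRA and at -2.06, -1.31 and -4.61 in HRA. It was lowest where the reference was highest, and HRA3 again lay with the PRA animals. Its r to the reference was -0.883, and the members' r to it was between -0.960 and -0.611. This transcript and the 100 chosen around it by the same rule had median differences of -1.15 in young and 0.74 in aged animals, against 1.43 and -0.47 for the members. Both lists were ranked on the same 11 arrays by correlation with a transcript chosen in the young contrast, so their opposite courses are not independent of each other.

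Compared within a slide, the young difference had the same direction in nearly all members, which their choice on these arrays makes likely. The same counts were not taken over all transcripts, and nothing is read from them. On slide 1, the mean of HRY1 and HRY2 was above PRY1 for all members, with a median difference of 1.70 and a range of 0.85 to 6.62. On slide 2, HRY3 was above PRY2 for 96, with a median of 0.98 and a range of -0.14 to 3.32. This was 1 animal against 1, in different rows of the slide. All aged animals were on slide 2, so no comparison among the aged was made across slides. Comparisons of young with aged animals were partly across slides, and there stage and slide cannot be fully told apart.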

How the data were processed

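The authors hybridized Cy3-labelled RNA of each animal to 1 Agilent marmoset array and read it with Agilent Feature Extraction 11.0.1.1. The deposited intensity of each spot is background-subtracted and not normalized between arrays. A second deposited table holds intensities of 44118 transcripts, which equal the scanner intensities divided by a constant per array within 0.1% of its 75th percentile, and was used as an alternative.

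From the deposited intensities, 1319 control spots and 6 to 18 outlier spots per array were left out (0 were saturated), spots of a probe were averaged as log2, and each array's 75th percentile was subtracted. Groups came from the sample labels. The members and lists were chosen with earlier results of these data known. The choice of members was tested on simulated data. Group means were fitted over all 11 arrays with limma 3.58.1 in R 4.3.3, on the 42034 transcripts detected well above background throughout 1 or more of the 4 groups. The criteria were more than a 2-fold change and p under 0.05 before adjustment, with Benjamini-Hochberg adjustment over all tested transcripts. Other values were computed in Python 3.11.15 with numpy 2.4.6 and pandas 2.3.3. Arrays give no counts, and the number of animals limits the precision.

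Named transcripts were the reference, the 10 with the highest r, the 5 largest and 3 smallest young differences, the 3 largest and 3 smallest aged differences, the 3 brightest, and 3 on each side of the limit. Left-out transcripts with a higher r to ENSCJAT00000036151.2 were to be named too, but none could arise among the closest followers, and there were 0. Members of the described profile sets, those past the criteria at both stages and those separate in opposite directions at both stages were named after their values were seen. The lists of cell type markers gave no value, because 0 identifiers matched a symbol.

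Alternatives were normexp background correction (offset 50, on the median spot intensity, as the mean was not among the columns), quantile normalization, the second table, outlier spots kept, other conditions for members, Spearman's rho, only the groups compared, no fold minimum, slide, RIN or replicate number in the model, and each animal left out. Values within each slide were added after seeing the data.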

Additional observations from a re-analysis of the deposited data

Results flagged for a closer look

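The median level of the members was higher in every HRY than in every PRY animal and lower in every HRA than in every PRA animal. The rearing difference was 1.59 in young and -0.72 in aged animals, and the stages differed by 2.31 on the log2 scale. With each member first centred on its own mean, the aged groups overlapped, since HRA3 at 0.06 lay above PRA2 and PRA3. The same full separation in opposite directions was found for 16 members. The difference between the stages was 4.91 for ENSCJAT00000033057.2, 3.04 for ENSCJAT00000011571.2, 2.99 for ENSCJAT00000054867.1, 2.89 for ENSCJAT00000061070.1 and 2.46 for ENSCJAT00000038076.2. It was 2.32 for ENSCJAT00000010156.2, 2.30 for ENSCJAT00000029642.2, 2.16 for both ENSCJAT00000021232.1 and ENSCJAT00000028799.2, 1.89 for ENSCJAT00000057691.1 and 1.80 for ENSCJAT00000001243.2. The smallest were 1.75 for ENSCJAT00000008992.1, 1.69 for ENSCJAT00000057854.1, 1.65 for ENSCJAT00000014115.2, 1.58 for ENSCJAT00000021110.1 and 1.44 for ENSCJAT00000003587.1. The members were chosen on these arrays. Each of the 16 was among the followers that met the criteria for this contrast in limma, from which nothing is read. For the median level of the members the contrast was not tested.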

How the results depend on the processing

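There were 145 repeats of the results under alternatives. Of these, 128 stayed within 1.5 times of a count or 1 SD between replicates of a difference, and 17 moved further. Among the differences 0 reversed, and a count could not reverse. Part of the 128 were fixed in advance, as leaving out an aged animal cannot change a young difference, nor a young animal an aged one. Slide or replicate number in the model could not change the aged median either. Dropping the exclusion by r to ENSCJAT00000036151.2 could not change the followers. Nothing is therefore read from the 128. Within those limits, the 94 followers higher in HRY were 65 without HRY1, 68 under normexp and 71 with RIN, and the aged median of -0.47 was -0.31 without PRA1. The 7 members lower in HRA became 15 without a fold minimum and 1 with RIN as a covariate. The choice kept 63 of the 100 followers under normexp, 60 under Spearman's rho, 11 with a minimum SD of 1 (reached by 12 members, the reference included), 40 without a minimum SD and 43 on deviations from group means. Within slide 2, the median young difference was 0.98 and that of ENSCJAT00000012224.1 was 3.32. With 1 animal left out, the young median ranged from 1.14 to 1.65, the difference of ENSCJAT00000012224.1 from 4.21 to 6.30, the members higher in HRY from 62 to 100, the aged median from -0.67 to -0.31, the members lower in HRA from 3 to 15, those higher in HRA from 0 to 0 and the followers chosen again from 38 to 84. Without PRY1 or PRY2, a single animal is assumed to vary like the other groups. Same-numbered animals did not deviate together (r of -0.02 and -0.26 in young, and 0.14, -0.15 and -0.05 in aged pairs), so the numbers were not taken as pairs. These few values cannot exclude a pairing, and the deviations of the 2 PRY animals mirror each other by construction. With the replicate number as a block, 91 followers were called higher in HRY, 6 were called lower in HRA, the medians were 1.44 and -0.47, and ENSCJAT00000012224.1 differed by 5.56. Dim probes limit the precision of the lowest values, as in PRY, HRA1 and HRA2 for the 3 widest members.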
